A study of Mus musculus with 4 samples.

Results

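The 4 Hox clusters of the mouse genome were examined for SOX3 binding sites in NP cells. The members were 38 Hox genes, of 22238 protein-coding genes in the GENCODE vM1 annotation. They were taken by name, with 10 in Hoxa, 10 in Hoxb, 9 in Hoxc and 9 in Hoxd, and every SOX3 peak from the first to the last base of the members of a cluster, plus 100 kb to each side, was counted. These 4 windows held 67 of the peaks called in 3 biological replicates and covered 1.285 Mb of the 2556 Mb of known sequence on the autosomes and the X chromosome. NP cells (neural progenitor cells) were derived from the mouse embryonic stem cell line R1 by 4 days of culture in N2B27, a serum-free medium, and all 3 replicates were of this 1 untreated group. The antibody for the precipitation came from goat and had human SOX3 as its antigen, and an NP cell sample without it was used as the input. Every result therefore rests on 1 cell line and 1 antibody. The lists hold peaks and no expression values, so neither the expression of SOX3 or of the Hox genes nor the identity of the cells could be checked from them.

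Hox genes encode homeodomain transcription factors that specify position along the head-to-tail axis. They lie in clusters in an order that matches their order of expression, so that the genes at the 3′ end (low paralogue numbers) are expressed early and far anterior, into the hindbrain, while those at the 5′ end (high paralogue numbers) are expressed late and posterior, in the trunk, tail, limbs and genital tubercle. SOX3 is a SOXB1 transcription factor of neural progenitors, and SOX proteins often bind DNA beside a POU factor at adjoining SOX and octamer words. HOX proteins bind beside PBX and MEIS, the TALE homeodomain cofactors.

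The lists differed in size. Replicate 1 had 18816 peaks, replicate 2 had 8096 and replicate 3 had 40543, and the number of reads behind them is unknown. The score of a peak is 10 times the negative log10 of its p-value, with 50 as the lowest score. It was not normalised between replicates, so each score is given with its percentile, the share of the peaks in the same list with an equal or lower score. Where peaks from all 3 replicates overlapped by at least 1 bp, the shared stretch was called a common site, and there were 5537 in the genome. Peaks of replicates 2 and 3 often had an identical edge, with the same first base in 34.5% of 7815 overlapping pairs, against 0.922% of 5637 pairs from replicates 1 and 2 and 1.63% of 8269 pairs from replicates 1 and 3. In the Hox windows this was so for 2 of 8 pairs from replicates 2 and 3, for 0 of 7 from replicates 1 and 2 and for 0 of 11 from replicates 1 and 3. The methods describe the same peak calling for all 3 replicates, and what lies behind the shared edges was not tested, so the overlap of replicates 2 and 3, and with it a common site, may not be agreement of independent lists.

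There were 7 common sites in the Hox windows. They are called site 1 to site 7 here, and their positions are given on mm9. Site 1 (chr6:52028473-52029195), site 2 (chr6:52055002-52055283), site 3 (chr6:52055315-52055587), site 4 (chr6:52056207-52056505) and site 5 (chr6:52103247-52103555) lay in the flank beyond Hoxa2, the member at the 3′ end of Hoxa. Site 6 (chr6:52114848-52115370) lay in Hoxa2 itself, and site 7 (chr11:96226683-96227055) just upstream of Hoxb1. Sites 2 and 3 were 31 bp apart and fell under a single peak in replicates 1 and 3 and under separate peaks in replicate 2, so the 7 sites formed 6 separate regions. In the peaks at these sites, 0% of the 50-base words occurred in exactly the same letters in more than 1 place of the genome.

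The sequences of the sites with the highest scores in each cluster are shown to give the letters found under the peaks. For Hoxb this was site 7, of which the middle 300 bp (chr11:96226720-96227019, plus strand, the strand of Hoxb1) are printed 5′ to 3′. Capitals mark a SOX word and a POU octamer that adjoin, and, a short way downstream, a word of the form TGATNNAT that HOX-PBX pairs bind.
Site 7, upstream of Hoxb1: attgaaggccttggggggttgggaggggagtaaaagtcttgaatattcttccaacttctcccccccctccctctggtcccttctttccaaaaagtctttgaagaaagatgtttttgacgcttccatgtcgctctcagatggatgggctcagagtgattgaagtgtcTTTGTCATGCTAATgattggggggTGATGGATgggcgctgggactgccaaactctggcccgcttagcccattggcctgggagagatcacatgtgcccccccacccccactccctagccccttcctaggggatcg
For Hoxa the site with the highest scores was site 1, shown over its middle 300 bp (chr6:52028685-52028984, minus strand, the strand of the Hoxa genes), with SOX words in capitals.
Site 1, beyond the 3′ end of Hoxa: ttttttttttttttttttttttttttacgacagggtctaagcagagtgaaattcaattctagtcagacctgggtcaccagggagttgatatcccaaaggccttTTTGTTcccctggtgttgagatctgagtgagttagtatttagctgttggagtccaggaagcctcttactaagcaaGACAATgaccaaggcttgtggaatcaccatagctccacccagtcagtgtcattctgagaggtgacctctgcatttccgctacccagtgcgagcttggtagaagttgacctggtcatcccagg
A stretch of site 1 outside that middle (chr6:52029042-52029070, minus strand) is shown for a match, in capitals, to the loose pattern of a joined SOX and POU word, WTTNWN followed by ATGCWAA with W for A or T. It holds neither a SOX word of the form AACAAW or GACAAW nor a full octamer.
Site 1, loose joined pattern: tcatgttcATTTACATGCTAAcgaaagaa
Site 6 lies in an untranslated region, and only short stretches of 30 bases are shown, around its HOX-PBX word (chr6:52114923-52114952) and around a SOX word (chr6:52114883-52114912), both on the minus strand and with the word in capitals.
Site 6, HOX-PBX word: gacttttttggATCAATCAaacagacagtg
Site 6, SOX word: attaaagcccaaATTGTCattgggcagaag

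Site 7 was at the promoter of Hoxb1 (ENSMUSG00000018973.2), which gives rhombomere 4 of the hindbrain its identity and maintains its own expression through an upstream enhancer. It scored 595.4, 316.8 and 535.2 in replicates 1, 2 and 3, at percentiles 97.5, 93.0 and 98.4. In each list the peak was among the highest 10%, at rank 475 of 18816, 566 of 8096 and 651 of 40543. The site was 373 bp wide and its middle was 197 bp upstream of the start of transcription, with 0 bases in an exon. The SOX word GACAAA, on the strand opposite to Hoxb1, and the octamer ATGCTAAT adjoined, so that they read TTTGTCATGCTAA from 180 to 168 bp upstream of the start, and TGATGGAT followed from 156 to 149 bp upstream. These positions lay within the peak of every replicate. The loose joined pattern, which was added after the values were seen, occurred in 358 (6.47%) of 5536 common sites of the genome without unknown bases.

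Site 6 was in the first exon of Hoxa2 (ENSMUSG00000014704.8), a gene that patterns the anterior hindbrain and the second pharyngeal arch. Its scores were 464.5, 225.6 and 434.8 in replicates 1, 2 and 3, at percentiles 96.0, 88.0 and 97.8. The middle of the site was 303 bp downstream of the start, and all 523 bp lay in the exon with 0 coding bases, which places the site in the 5′ UTR. It held the SOX words AACAAT and AACAAA from 211 to 216 bp and from 134 to 139 bp downstream of the start, and GACAAT from 512 to 517 bp. The HOX-PBX word TGATTGAT lay from 471 to 478 bp and the MEIS/PKNOX word TGACAG from 538 to 543 bp downstream of the start. The same stretch lies in an intron of the longer annotated transcripts of Hoxa3.

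**Figure D1:**
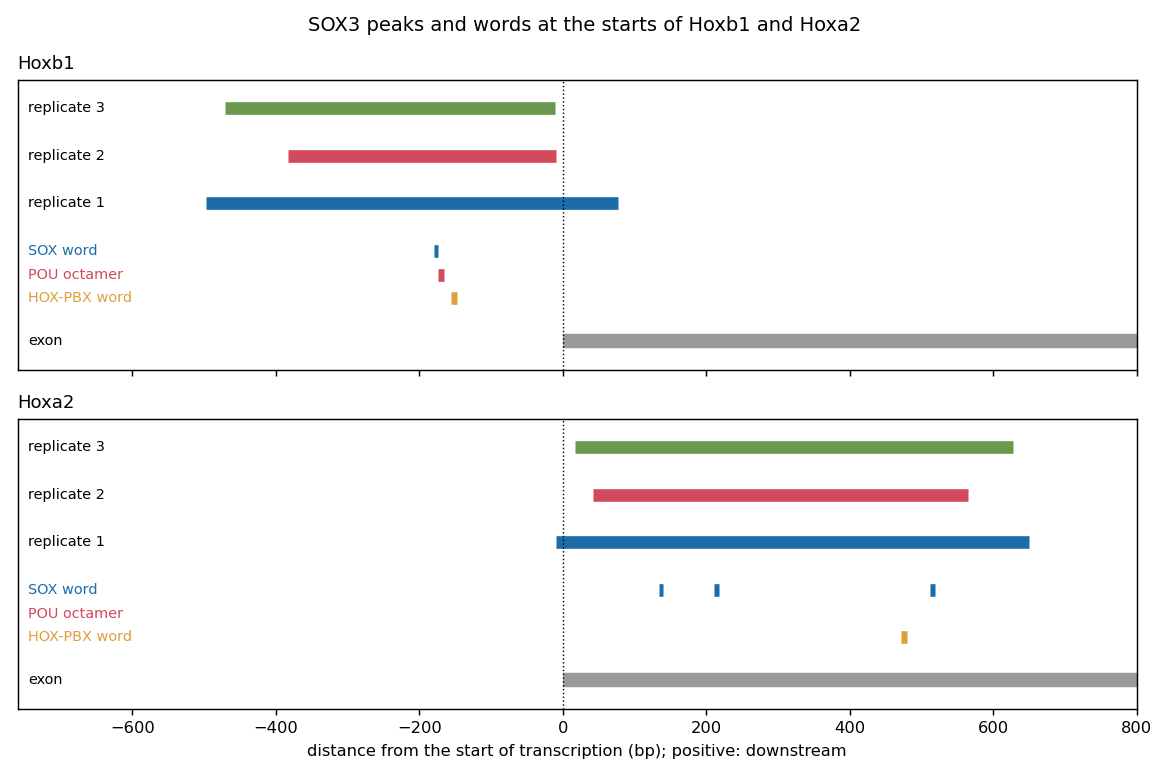
Peaks of replicates 1, 2 and 3 (thick bars), words and exons at Hoxb1 (top) and Hoxa2 (bottom), by distance in bp from the start of transcription. SOX words are AACAAW or GACAAW, and the HOX-PBX words are TGATNNAT. At Hoxb1 the middle of the common site is 197 bp upstream of the start, and the SOX word and the POU octamer adjoin. At Hoxa2 the middle of the common site is 303 bp downstream, inside the first exon.

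The other 5 common sites extended over the 3′ flank of Hoxa. Site 1 was the farthest out, 83.5 kb beyond the 3′ end of Hoxa2 and 86578 bp from its start. It had the highest scores of any peak in the Hox windows in each replicate, 671.1, 428.3 and 782.9, at percentiles 98.0, 95.9 and 99.2, and it was the widest of the 7 at 723 bp. Sites 2, 3 and 4 lay together from 57.2 to 56.0 kb beyond the 3′ end, within the noncoding transcript Gm15055. The peak over sites 2 and 3 scored 425.9 in replicate 1 and 640.1 in replicate 3, at percentiles 95.4 and 98.8, and the separate peaks of replicate 2 scored 230.4 and 92.8, at percentiles 88.4 and 57.4. Site 4 scored 198.9, 151.1 and 247.4, at percentiles 84.8, 78.4 and 95.2. Site 5, 8.95 kb beyond the 3′ end, scored 195.2, 99.8 and 197.9, at percentiles 84.4, 61.2 and 93.3. In each list sites 1, 6 and 7 ranked above sites 4 and 5. Site 3 held the octamer ATGCTAAT (chr6:52055384-52055391) and, close to it, the SOX word GACAAT (chr6:52055401-52055406).

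All 7 sites held a SOX word of the form AACAAW or GACAAW on either strand, as did 3791 (68.5%) of the 5536 common sites of the genome. AACAAW was in 5 of the 7 and in 53.0% of all common sites, GACAAW in 6 and 38.5%, and ACAAWR, with R for A or G, which overlaps both, in 6 and 74.4%. A POU octamer (ATGCAAAT or ATGCTAAT) was in sites 3 and 7, against 9.85% of all common sites. TGATTGAT, TGATTTAT or TGATTAAT was in site 6 only, against 5.76%, the looser TGATNNAT in sites 6 and 7, against 15.2%, and TGACAG in site 6 only, against 22.3%. Exact direct repeats of AGGTCA 5 bases apart, a word for retinoic acid receptors, were in 0 of the 7 and in 3 (0.0542%) of all. At that share a 0 among 7 sites carries no information, and variant words or other spacings were not searched. The Hox sites were from 273 to 723 bp wide, wider sites hold more words, and in windows of 200 bp around the middle GACAAW was left in 3 of the 7, against 34.0% of all. In these windows AACAAW was in 5, against 48.5% of all, and a POU octamer in 2, against 8.71%. TGATNNAT was left in 1, against 11.8%. TGATTGAT, TGATTTAT or TGATTAAT was in 0, against 4.44%, and TGACAG in 0, against 17.8%. These are counts of letters in 7 sites and no test was made on them.

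By cluster, the Hoxa window held the most peaks in replicates 1 and 2, and the Hoxb window in replicate 3. Replicate 1 had 15 peaks in Hoxa, 8 in Hoxb, 4 in Hoxc and 4 in Hoxd. Replicate 2 had 7 in Hoxa, 1 in Hoxb and 0 in Hoxc and Hoxd. Replicate 3 had 12 in Hoxa, 13 in Hoxb, 2 in Hoxc and 1 in Hoxd. Common sites were found 6 times in Hoxa, once in Hoxb and not in Hoxc or Hoxd, where a count of 0 allows up to 11.7 and 12.4 common sites per Mb (exact 95% Poisson limit). Of windows of the same length along the genome, 60.6% for Hoxc and 62.1% for Hoxd also had none.

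**Figure D2:**
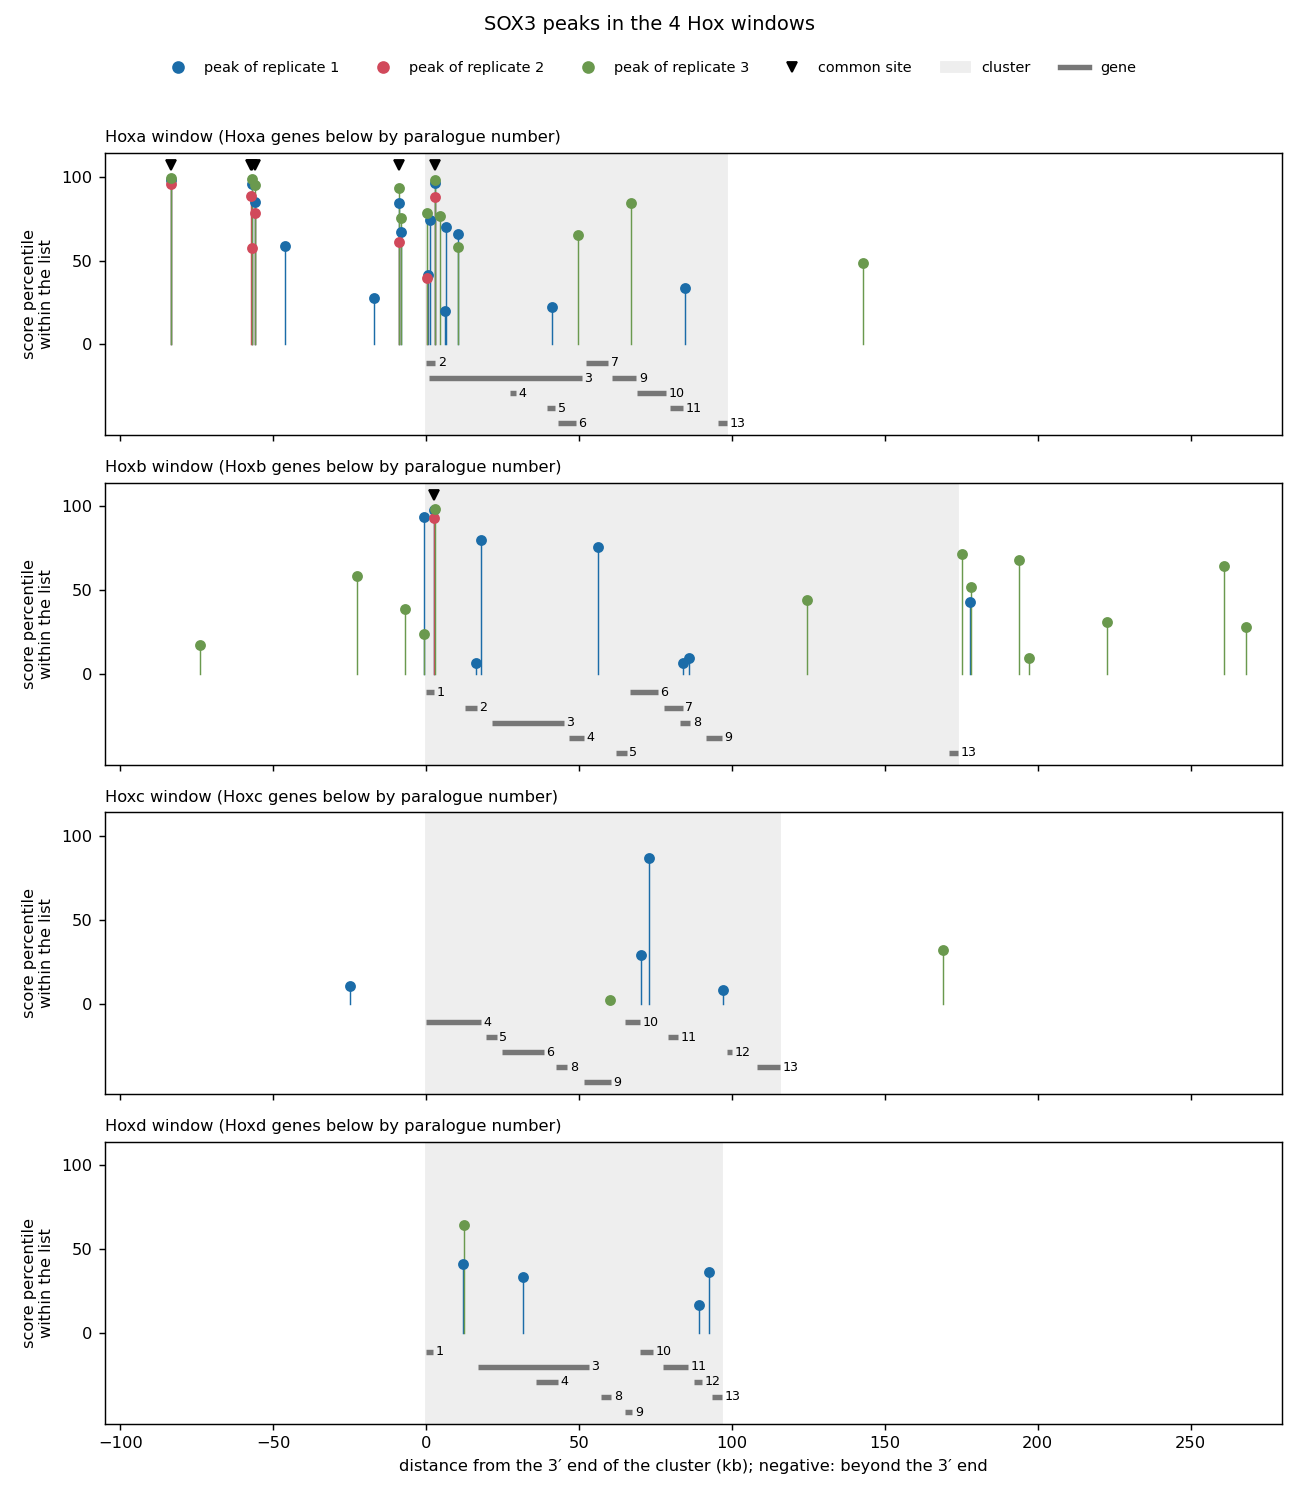
SOX3 peaks in the windows of Hoxa, Hoxb, Hoxc and Hoxd, by distance in kb from the 3′ end of the cluster (x axis) and percentile of the score within its list (y axis), with one colour per replicate, triangles for common sites and bars for the 38 genes. The 6 common sites of Hoxa lie from 83.5 kb beyond the 3′ end to 2.76 kb inside it, and the 1 common site of Hoxb lies 2.70 kb inside.

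The density of the Hoxa window was above that of the genome in each list. It was 50.3 peaks per Mb in replicate 1 (95% exact Poisson interval 28.1 to 82.9), which was 6.83 times the genome (3.82 to 11.3). It was 7.40 times the genome in replicate 2 (2.98 to 15.3), 2.54 times in replicate 3 (1.31 to 4.43) and 9.28 times for common sites (3.41 to 20.2). These intervals cover counting error only, and they are too narrow where neighbouring peaks are not independent, as at sites 2, 3 and 4. Among 8576 windows of the same length along the genome, 0.373% had at least as many peaks of replicate 1 as Hoxa, 0.816% at least as many of replicate 2, 6.31% at least as many of replicate 3 and 0.606% at least as many common sites. The Hoxb window was 2.91 times the genome in replicate 1 (1.26 to 5.73) and 2.19 times in replicate 3 (1.17 to 3.75), but 0.844 times in replicate 2 (0.0214 to 4.71), and its 1 common site gave 1.23 times (0.0313 to 6.88). The intervals for Hoxc and Hoxd included 1 in each list.

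Over the 4 windows together, the ratio to the genome was 3.28 in replicate 1 (2.23 to 4.65), 1.97 in replicate 2 (0.849 to 3.87), 1.38 in replicate 3 (0.914 to 1.99) and 2.51 for common sites (1.01 to 5.18). Without the Hoxa window the ratio was 2.20 in replicate 1, from 16 peaks, and 1.02 in replicate 3. It fell below 1 in replicate 2, to 0.320, and for common sites, to 0.468, each from 1 peak or site.

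Inside and outside the clusters the replicates gave different pictures. Replicate 1 had 21 of its 31 peaks between the first and last gene of a cluster, 5.89 times the genome (3.64 to 8.995), with 8 in Hoxa, 6 in Hoxb, 3 in Hoxc and 4 in Hoxd, so that each cluster was represented. Replicate 3 had 10 of its 28 there, 1.30 times the genome (0.624 to 2.39), and replicate 2 had 3 of 8, 1.95 times (0.403 to 5.71). Of the 21 peaks of replicate 1 inside the clusters, 17 overlapped no peak of another replicate, and these had a median percentile of 33.5, against 81.1 for the other 4. Over the whole windows 20 of the 31 peaks of replicate 1 (64.5%) overlapped none, and 56.4% of its whole list. Common sites fell inside a cluster 2 times and in the 3′ flank of Hoxa 5 times. That flank of 100 kb had 50 common sites per Mb (16.2 to 117), 23.1 times the genome (7.49 to 53.9), and none of the other 7 flanks had one. The 5′ flank of Hoxb held 7 of the 9 peaks that replicate 3 had in 5′ flanks.

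**Figure D3:**
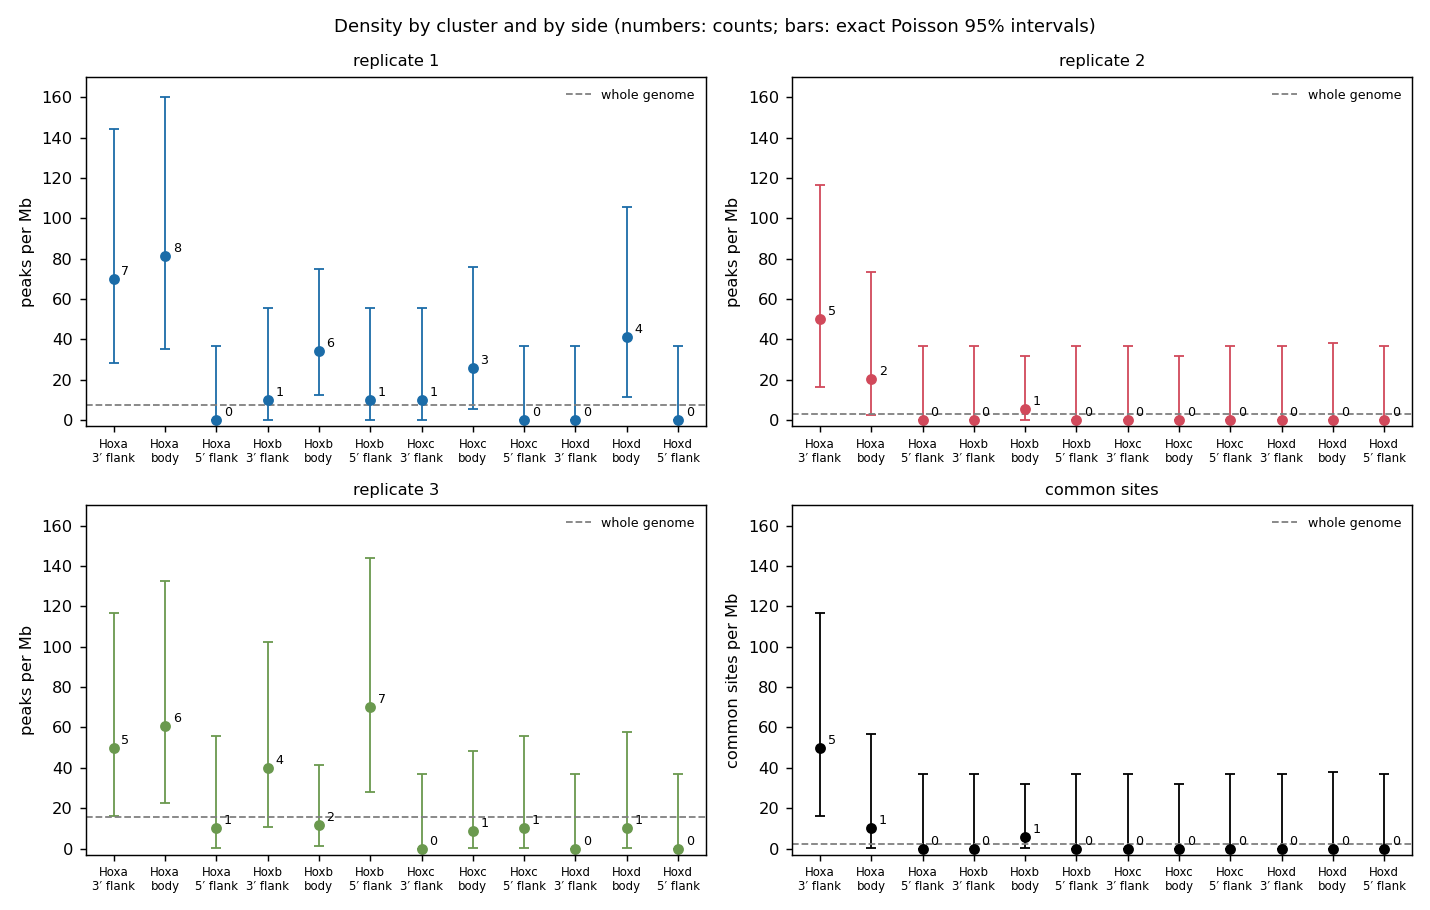
Peaks per Mb in replicates 1, 2 and 3 and common sites per Mb (lower right), in the 3′ flank, the body and the 5′ flank of each cluster. Points are densities, the numbers beside them are counts, bars are exact Poisson 95% intervals, and dashed lines mark the whole genome. The 3′ flank of Hoxa holds 5 of the 7 common sites, and replicate 1 has peaks in the body of all 4 clusters.

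By paralogue group, the member closest to each peak of replicate 2 and to each common site was a 3′ gene. This assignment is among the 38 members only, and for 2 of the 7 common sites, 6 and 7, the member was also the closest of all protein-coding genes. With each peak assigned in this way, groups 1 to 4 (11 members) received 21 peaks in replicate 1, 8 in replicate 2, 15 in replicate 3 and all 7 common sites. Groups 5 to 8 (11 members) received 3, 0 and 1 peaks, and groups 9 to 13 (16 members) 7, 0 and 12, with no common site in either. Group 2 alone, which is Hoxa2 and Hoxb2, received 14, 7 and 8 peaks and 6 common sites, of which 7, 5 and 5 peaks and 5 common sites lay in the 3′ flank of Hoxa. Of the 12 peaks of replicate 3 in groups 9 to 13, 9 were assigned to group 13, at the outer 5′ end, and lay in the flanks. Genes at the ends of a cluster collect the peaks of a 100 kb flank, so these counts describe position and not the number of sites a gene has.

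Of the 38 members, 2 had a common site within 2000 bp of a start, Hoxa2 and Hoxb1. That is 5.26% (95% Wilson interval 1.46 to 17.3), against 4.82% of all protein-coding genes. In replicate 1, 11 members had a peak within 2000 bp of a start, 28.9% (17 to 44.8), against 20.5% of all. In replicate 2 the same 2 members did, 5.26% against 6.26%, and in replicate 3, 7 members, 18.4% (9.22 to 33.4) against 19.2%. The interval of each share held the background, and the members are neighbours rather than independent genes. The median distance from a member to the closest common site was 104416 bp, and it was 146646 bp over all genes. The median distance to the closest peak was 6480 bp against 28719 bp in replicate 1, 104409 bp against 95803 bp in replicate 2 and 22058 bp against 14869 bp in replicate 3, so that the members were closer than all genes in replicate 1 and farther in the other 2.

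In all, 15 members (39.5%, 25.6 to 55.3) had a peak near a start in at least 1 replicate, against 29.9% of all protein-coding genes, and 23 had none. Hoxa2 and Hoxb1 were alone in having one in all 3 replicates (5.26% against 5.08% of all genes), and 3 members had one in at least 2 (7.89% against 10.9%). Hoxa3, which acts in the hindbrain and the pharyngeal arches, had one in replicates 1 and 3, with middles 53 and 207 bp from a start. The overlapping peaks there, at chr6:52122564-52122953, scored 108.3 in replicate 1 and 68.5 in replicate 3, at percentiles 66.1 and 58.3.

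The other 12 members (31.6%, 19.1 to 47.5) had a peak near a start in 1 replicate only. Of all protein-coding genes, 29.9% had one in at least 1 replicate and 10.9% in at least 2. The 12 members were Hoxb2, Hoxd3, Hoxa5, Hoxb7, Hoxb8, Hoxc10, Hoxa11 and Hoxd12 in replicate 1, and Hoxa6, Hoxa9, Hoxc9 and Hoxb13 in replicate 3. Most of these peaks were in the lower part of their lists. The peak closest to a start, 23 bp from a start of Hoxb7, scored 52.3 at percentile 6.87, and 153 of its 163 bp lay in coding sequence of Hoxb8. The one 116 bp from a start of Hoxb8 scored 52.8 at percentile 9.51. The peak 232 bp from a start of Hoxc9 scored 50.2, at percentile 2.20 and close to the threshold of 50. Above the middle were the peaks near Hoxa6 and Hoxb13 in replicate 3, at percentiles 65.5 and 71.4, a peak 1315 bp from the start of Hoxb2, a rhombomere gene, which scored 161.1 at percentile 79.9 in replicate 1 (a closer one, 386 bp away in coding sequence, scored 52.3 at percentile 6.87), and a peak 1080 bp from a start of Hoxa9, a gene of the trunk and of blood progenitors, which scored 110.2 at percentile 84.2 in replicate 3.

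**Figure D4:**
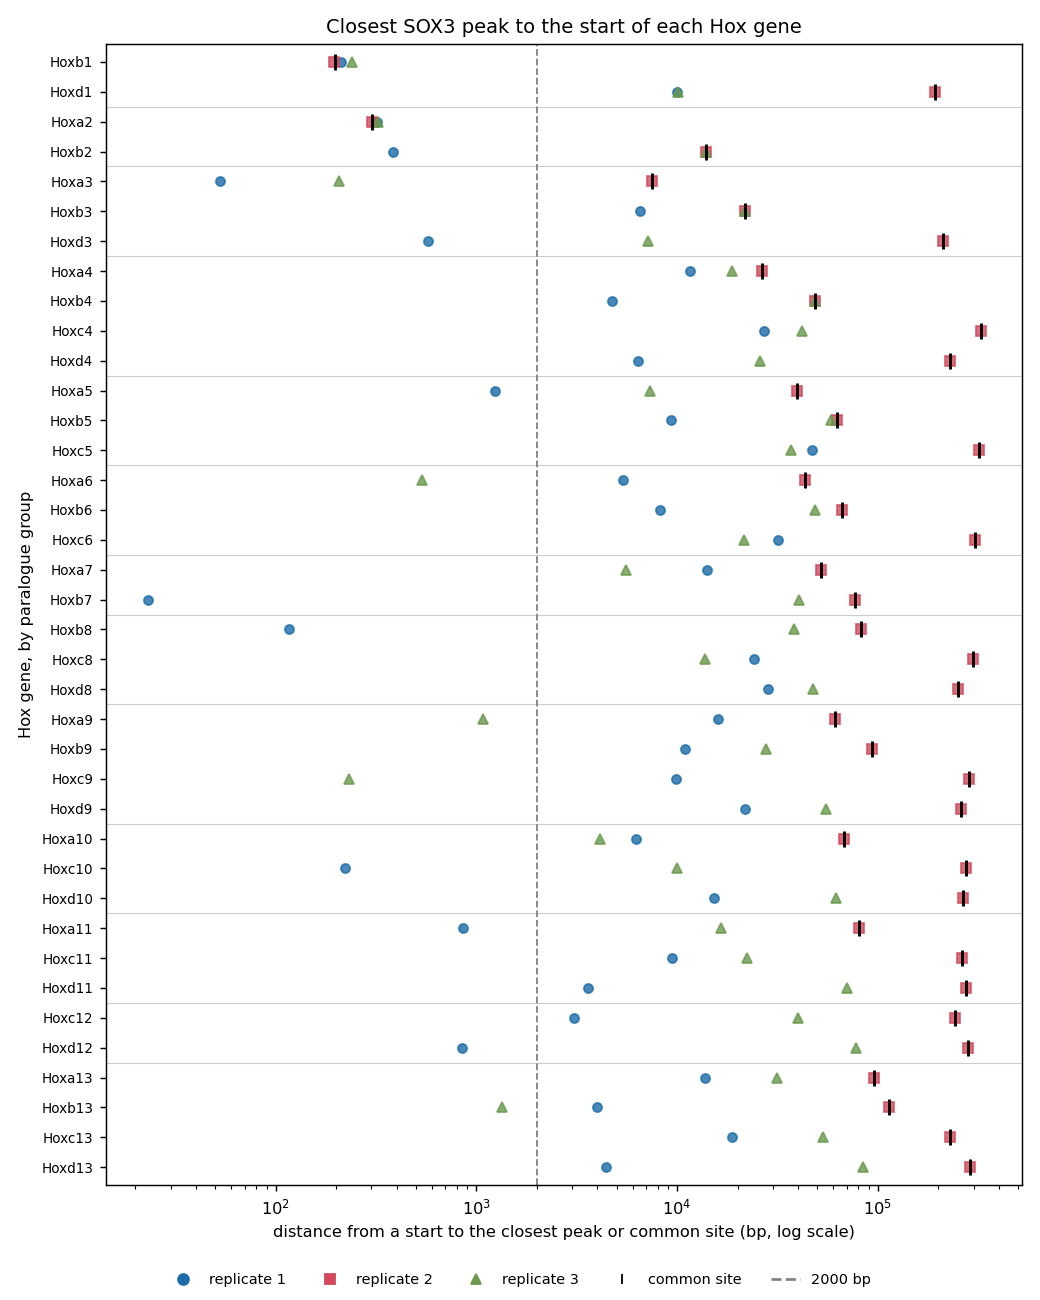
Distance in bp (log scale) from a start of each of the 38 Hox genes, ordered by paralogue group, to the closest peak of replicates 1, 2 and 3 and to the closest common site. The dashed line marks 2000 bp. Hoxb1 and Hoxa2 have all 4 marks to the left of it, and 23 genes have none there.

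The peaks of the 4 windows merged into 48 regions, 20 in Hoxa, 18 in Hoxb, 6 in Hoxc and 4 in Hoxd. Of these, 20 were in replicate 1 only, 41.7% against 20.7% of the 51271 regions of the genome, and 16 were in replicate 3 only, 33.3% against 58.7%. All 3 replicates shared 6 (12.5% against 10.5%), and 12 were in at least 2 replicates (25.0% against 20.2%). Of those 12, Hoxa held 8, Hoxb 3, Hoxc 0 and Hoxd 1.

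Another 6 regions were in exactly 2 replicates. A region just downstream of Hoxb1, at chr11:96230072-96230576, scored 360.3 in replicate 1, at percentile 93.8, but 54.5 in replicate 3, at percentile 23.8, and had no peak in replicate 2. A region in the 3′ UTR of Hoxa2, at chr6:52112431-52112681, had identical first and last bases in replicates 2 and 3 and scored 70.8 and 93.7. The others were in replicates 1 and 3, at Hoxa3 as given above, in the 3′ flank of Hoxa (chr6:52104056-52104370, percentiles 66.8 and 75.6), 3966 bp from the start of Hoxb13 (percentiles 42.7 and 52.1), and between Hoxd3 and Hoxd1 (chr2:74590744-74591107, percentiles 41.4 and 64.6). The last was the one place in the Hoxc and Hoxd windows where replicates overlapped.

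In the Hox windows, scores were higher in regions shared between replicates, with overlapping ranges. The percentiles by region pool lists of unequal length and have no genome value beside them, so they do not set the Hox regions apart. Taking the highest peak of each replicate in a region, the median percentile was 95.3 in regions of all 3 replicates (lowest 61.2), 86.4 in regions of at least 2 replicates (lowest 23.8), 31.3 in regions of replicate 1 only (highest 86.7) and 46.5 in regions of replicate 3 only (highest 84.2). By replicate, the median percentile of all Hox peaks was 42.7 in replicate 1, 83.2 in replicate 2 and 64.6 in replicate 3. The median GC content of the peaks in the windows was 55.4% in replicate 1, 43.3% in replicate 2 and 47.5% in replicate 3, against 51.5%, 49.1% and 46.4% in the whole lists. In 200 bp around the middle, a SOX word (AACAAW or GACAAW) was in 10 of the 20 regions of replicate 1 only, against 39.97% of such regions in the genome, in 11 of the 16 of replicate 3 only, against 49.8%, and in 5 of the 6 of all 3 replicates, against 65.5%. Multi-copy peaks, with more than 50% of their 50-base words in more than 1 place, numbered 0 of 31 in replicate 1, which by the rule of 3 counts allows a share of up to 9.68%, 0 of 8 in replicate 2, which allows up to 37.5%, and 1 of 28 in replicate 3. In the whole lists the shares were 23.1%, 27.5% and 29.2%, so that 0 of 8 in replicate 2 does not show a lower share.

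**Figure D5:**
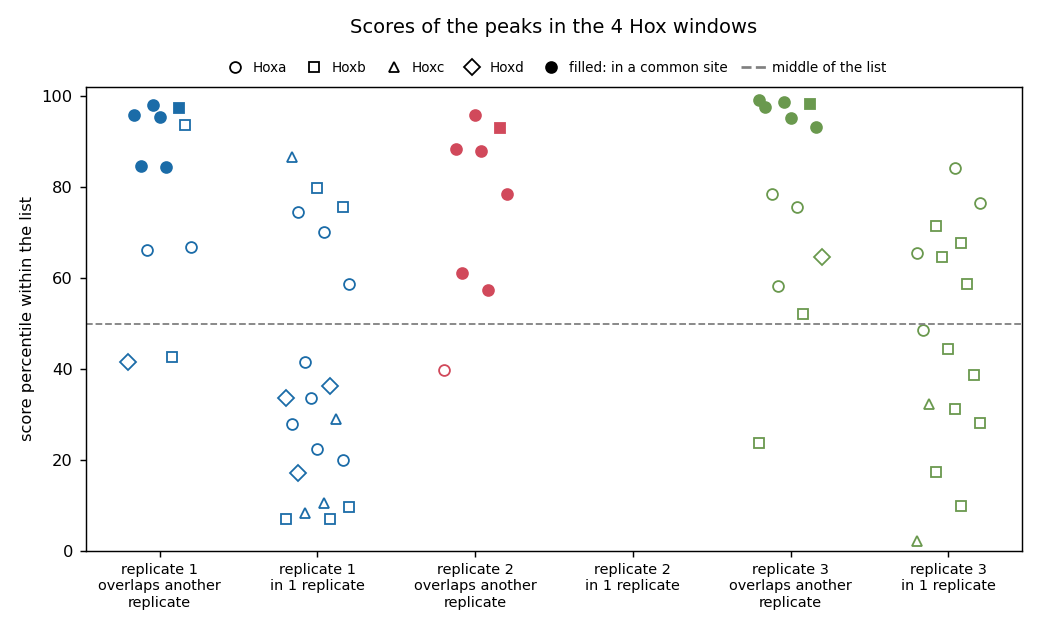
Percentile of the score within its list (y axis) of each of the 67 peaks, by replicate and by overlap with another replicate, with one symbol per cluster and filled symbols for peaks in a common site. Replicate 2 has 0 of 8 peaks in 1 replicate alone, against 2.42% of its whole list. The filled symbols of replicate 3 lie at 93.3 or above, and most peaks in replicate 1 alone lie below the middle of the list.

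The highest peak of each cluster showed how the clusters differed. In Hoxa it was at site 1 and in Hoxb at site 7 in every replicate. In Hoxc it was a peak of replicate 1 at chr15:102794143-102794445, 2933 bp from the start of Hoxc10, a posterior gene, with a score of 218.2 at percentile 86.7 and no peak of another replicate there, and the highest of replicate 3 scored 56.8. In Hoxd the highest scored 67.7 in replicate 1 and 73.4 in replicate 3, in the region between Hoxd3 and Hoxd1.

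Genes that act with or above the Hox genes, and other homeobox genes, were counted by the same rules. Within 2000 bp of a start, a common site was found at 0 of 9 TALE cofactors (Meis, Pbx and Pknox genes), 5 of 18 upstream regulators, 3 of the 17 of 19 chromatin regulators found in the annotation, 1 of 6 ParaHox genes, 1 of 15 homeobox genes of the forebrain and midbrain, and 2 of 16 genes of other homeobox clusters, beside 4.82% of all protein-coding genes. The ParaHox list shares Cdx1, Cdx2 and Cdx4 with the upstream regulators, and its 1 gene is Cdx1. The upstream regulators were Cdx1, a posterior activator of Hox genes, Gbx2, which sets the border of midbrain and hindbrain, the retinoic acid receptors Rara and Rarg, and Aldh1a2, which makes retinoic acid. The chromatin regulators were Pcgf2, Ring1 and Phc1, all of Polycomb repressive complex 1, and the homeobox genes were Pax6, Nkx2-9 and Nkx2-2. At any distance, a common site had as its closest gene 5 of the 9 TALE cofactors (Meis2 for 4 sites), 9 of the 18 upstream regulators (Rarb for 3), 5 of the 17 chromatin regulators (Ezh2 for 18), 3 of the 6 ParaHox genes (1 site each), 7 of the 15 forebrain and midbrain genes (Pax6 for 4) and 8 of the 16 genes of other homeobox clusters (Irx3 for 8). For the Hox genes it was 2 of 38, and for all genes 16.6%.

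Common sites per Mb in windows of genes plus 100 kb to each side were 5.45 for the Hox clusters (2.19 to 11.2), 4.65 for the TALE cofactors (2.54 to 7.80), 5.31 for the upstream regulators (3.33 to 8.04), 4.22 for the ParaHox genes (1.15 to 10.8), 9.06 for the chromatin regulators (6.24 to 12.7), 6.27 for the forebrain and midbrain homeobox genes (3.83 to 9.68) and 5.62 for the other homeobox clusters (3.08 to 9.44). Over the windows of all protein-coding genes it was 2.53. The value of the chromatin regulators rested on Ezh2, a Polycomb methyltransferase, and was 4.44 (2.49 to 7.33) without it, and that of the ParaHox genes was 2.68 without Gsx2. The interval of the Hox clusters held the values of all 6 lists and also that of all genes.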

How the data were processed

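SOX3 ChIP-seq was analysed in 3 biological replicates of NP cells. The authors aligned 50 bp single-end reads to mm9 with Bowtie (version 1.0.0 in the submitters' processing notes) and called peaks in each replicate with MACS (version not given in the sources used here), against the input, at p-values up to 1e-05, with bandwidth 300 and model folds from 10 to 30. As deposited by the authors, each list gives the position of a peak and its score, which is -log10 of the p-value from MACS multiplied by 10, with no normalisation between replicates. No reads were analysed, so depth is unknown, and peaks depend on depth and on the input.

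From these lists, peaks per window, common sites, distances from the middle of a peak to the starts of transcripts, percentiles and words on both strands were computed. Genes came from GENCODE vM1 on the NCBIM37 reference, the same assembly as mm9, and 0 peaks ran past the end of a chromosome. Entries of the same gene name were joined, which gave 22238 protein-coding genes. Distances are to the closest of the 38 members, and 1 protein-coding gene of the Hoxa window is not reported here. Intervals for densities are exact Poisson intervals and those for shares Wilson intervals, both at 95% and for counting error only. Same-length windows along the genome had at least 50% known bases. With 1 group there was no comparison of conditions and no test. The members and the lists were chosen with earlier results of these data known. Named were the members with a common site, or a peak within 2000 bp of a start or inside the gene, every common site, and the highest peak of each cluster in each replicate. Sequences shown are the middle 300 bp of the common site with the highest lowest percentile of each cluster, with stretches of at most 30 bases in untranslated regions and around a joined word. The joined SOX and POU word, TGATNNAT, the regions in exactly 2 replicates and the exclusion of the Hoxa window were added after the values were seen. The functions were tested on simulated data. The software was matplotlib 3.10.9, numba 0.67.0, scipy 1.17.1, pysam 0.24.0, numpy 2.4.6 and Python 3.11.15.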

Additional observations from a re-analysis of the deposited data

How the results depend on the processing

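Other settings were tried for the counts, the ratios to the genome, the members near a start, the SOX words and the other lists, and 71 of 91 alternative values kept their side of 1 and stayed within 1.5 times of a count, the counting interval of a ratio or that of a share of windows or density. Leaving out the Hoxa window, chosen after seeing the data, took the ratio to the genome to 0.468 for common sites and to 0.320 in replicate 2, both below 1, and to 2.20 in replicate 1. The number of common sites, 7, was 2 with no flank and 3 with a flank of 50 kb, as these leave out all or part of the 3′ flank of Hoxa. It ranged from 7 to 11 with the sites of the other replicates when each replicate was left out, and the ratio to the genome from 2.04 to 2.65. The ratio of common sites to the genome was 1.90 with no flank and 1.57 with a flank of 50 kb. It was 3.46 with equal numbers of peaks and 3.66 with scores of at least 100. With no flank, replicate 1 had a ratio of 5.89, replicate 2 had 3 peaks and replicate 3 had 10. With a flank of 50 kb replicate 2 had 4 peaks, and with 200 kb replicate 3 had 44. With scores of at least 100, the peaks numbered 14, 5 and 7 in replicates 1, 2 and 3. With equal numbers of peaks, replicate 1 had 15 and replicate 3 had 7. The number of members near a common site was from 2 to 3, and with replicate 2 left out Hoxa3 was the third. The share of all genes ranged from 2.00% with scores of at least 100 to 10.3% within the gene or 2000 bp to either side. Without Ezh2, a choice made after seeing the data, the chromatin regulators had 4.44 common sites per Mb. Among windows of the genome with a gene start, the share with at least as many as Hoxa was 0.816% for common sites. No paired analysis was possible because the 3 replicates form 1 group. The number of reads is unknown, so a missing peak, as in replicate 2, cannot be told apart from low depth.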
